A study of Mus musculus with 10 samples.

Results

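The cytosolic ribosomal proteins are the proteins of the ribosome that works in the cytoplasm, as distinct from that of the mitochondria. Their genes were taken by name: protein-coding genes called Rpl or Rps followed by a number, the stalk genes Rplp0 to Rplp2, and Rpsa, leaving out the S6 kinases and Rps19bp1. The rule gave 100 genes of 40690 in the count table. By name, 31 encode small subunit proteins, 43 large subunit proteins and 3 stalk proteins, 9 are paralogues outside the standard set, and 14 carry pseudogene names although the table lists them as protein-coding. The poly(A) RNA came from ventricles of 10-week-old male C57BL/6 mice, 5 naive animals that had no operation and 5 animals given a sham operation, the control procedure for ischemia-reperfusion. The labels name no transgene, drug or pooling. The labels do not say how long after the operation the hearts were taken. The comparison asks what the surgical procedure itself, without the injury it controls for, is accompanied by in the ventricle.

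A ribosome joins a small subunit, which reads the messenger RNA, to a large subunit, which makes the peptide bond. The acidic P stalk on the large subunit recruits the translation factors. Many messenger RNAs for these proteins begin with a run of pyrimidines at the very 5′ end, the TOP motif, through which mTORC1 and Larp1 control their translation as a group. Most ribosomal proteins are made in every cell, but Rpl3l, a paralogue of Rpl3, is known as the form of heart and skeletal muscle.

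The start regions were searched for runs of pyrimidines, which the name rule did not use. Such a run need not begin at the first transcribed base, so its presence or absence is no call of the TOP motif. Where a gene had several annotated starts, only the most upstream one was used. RefSeq promoters on GRCm38.p6 were found for 65 of the 100 genes. In 21 of these 65 (32.3%), an unbroken run of at least 8 C or T bases touched the region within 5 bases of the annotated start, against 9.64% of all 27025 RefSeq promoters and 9.82% of the 9804 other protein-coding genes tested. The letters CCGGAA, on either strand, were present in the window from 250 bases before to 50 after the start in 33 of the 65 (50.8%), against 15.2% of all promoters and 27.2% of the other tested genes. The windows below run 5′ to 3′ from 20 bases before the start through the first 20 transcribed bases. Capitals mark the longest run of C and T that touches the region within 5 bases of the start. The first 6 are members that rose in sham and carry a run of at least 8; Rps19 rose without one, and Rpl3l, the member that fell, has none either.
Rps6, chr4:86857348-86857387, minus strand: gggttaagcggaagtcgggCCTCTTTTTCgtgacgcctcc
Rpl13a, chr7:45128726-45128765, minus strand: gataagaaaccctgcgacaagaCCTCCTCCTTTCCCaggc
Rps18, chr17:33955646-33955685, minus strand: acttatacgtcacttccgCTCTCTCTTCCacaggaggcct
Rps10, chr17:27635225-27635264, minus strand: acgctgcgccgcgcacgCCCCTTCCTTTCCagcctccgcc
Rps26, chr10:128626487-128626526, minus strand: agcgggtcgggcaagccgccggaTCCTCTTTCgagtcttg
Rps9, chr7:3704021-3704060, plus strand: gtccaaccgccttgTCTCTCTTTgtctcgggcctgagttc
Rps19, chr7:24884572-24884611, plus strand: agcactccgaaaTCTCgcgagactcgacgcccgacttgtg
Rpl3l, chr17:24727806-24727845, plus strand: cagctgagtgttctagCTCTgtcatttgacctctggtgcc
The run was about as frequent whether or not a member passed the test. A run of at least 8 was present in 6 of the 17 promoters of members that rose (35.3%) and in 13 of the 36 of members that did not pass the test (36.1%), and CCGGAA was present in 7 of those 17 (41.2%) and 21 of those 36 (58.3%).

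Library totals ran from 9683181 to 21537135 counts. Levels are given as CPM, the count of a gene relative to the TMM-scaled total of its library, and a floor of 3 counts corresponded to 0.122 CPM in the sham library 5 and 0.357 CPM in the naive library 1. One library stands apart for these genes. Sham 4 held the highest CPM of the 5 sham libraries in 64 of the 72 members tested and the lowest in none, while sham 1 was the lowest in 32. Sham 4 also had the most counts, 24214 genes with at least 1 count against 20235 to 22570 in the other 9 libraries, and 8.87% of its counts on the single gene Gm42418, against 1.96% to 4.54% in the other sham libraries and 5.11% to 10.4% in the naive ones. Values without it are given below where its absence changed the call of a described gene. They are also given where it moved the log2 fold change of such a gene or the median of a list by over 1.5 times.

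Of the 100 members, 72 had enough reads to be tested. The other 28 had between 0 and 99 counts over all 10 libraries together, with a median of 10.5. They were the 14 pseudogene-named members, 5 paralogues (Rpl10l, Rpl22l1, Rpl39l, Rpl6l and Rps27rt), 4 large subunit genes (Rpl19, Rpl23a, Rpl24 and Rpl39, with 32 to 54 counts) and 5 small subunit genes (Rps12, Rps13, Rps23, Rps27 and Rps29, with 9 to 99 counts). These last 9 encode standard ribosomal subunit proteins. Why their counts are low was not tested.

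Sham ventricles held more messenger RNA of a part of these genes, and less of 1 of them. At an adjusted p under 0.05 in edgeR's quasi-likelihood test, 23 of 72 members were higher in sham and 1 was lower, while 48 did not pass. Over all 13622 genes tested, 17.2% were higher, 15.5% lower and 32.7% changed in either direction, so the members' 31.9% higher stands against 17.2%. The members' median log2 fold change, sham against naive, was 0.31, against -0.05 for all genes tested. Values were positive in 62 members and negative in 10, and 45.1% of all genes tested were positive. Scaled by library size only, without TMM factors, 45 members were higher and none lower with a median of 0.57, while the median of all genes tested moved to 0.22 and 4473 of them were higher and 283 lower, against 2342 and 2113 with TMM. In bulk tissue, a change in the share of cells of one type and a change in RNA per cell cannot be told apart.

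**Figure D1:**
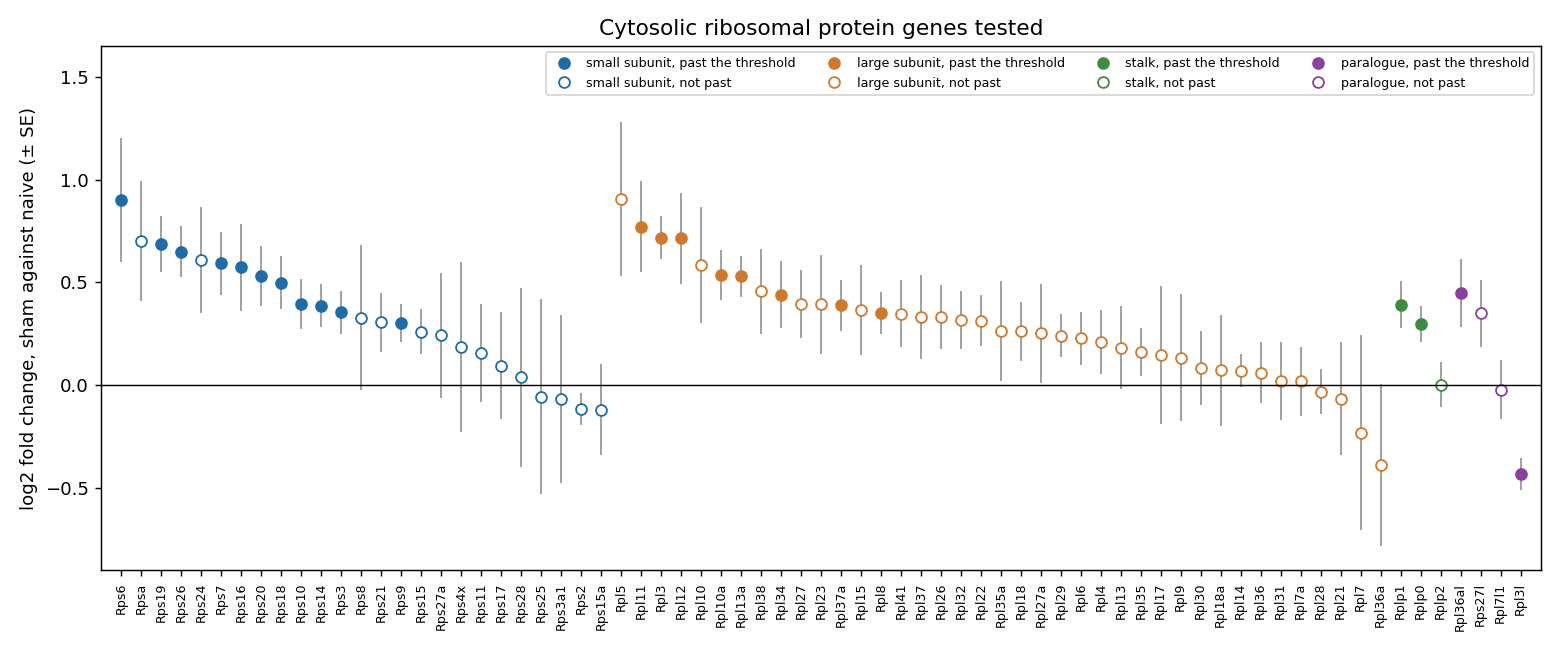
Log2 fold change (sham against naive, vertical axis) of 71 of the 72 members tested, grouped by role along the horizontal axis; bars are standard errors from the edgeR fit and filled points passed an adjusted p under 0.05. Most points lie above 0, 22 filled points are higher and Rpl3l is the 1 filled point below 0.

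The sum over all members shows how far this rests on single libraries. Summed member CPM was 3544, 3490, 3493, 3577 and 3308 in the naive libraries and 3755, 4063, 3809, 5369 and 4045 in the sham libraries, so the lowest sham library lay above the highest naive one. Sham 4 lay farther above the other sham libraries than these lay above the naive range. The median deviation of a member from its naive mean, in log2 units, was -0.06 to 0.07 in the naive libraries and 0.10, 0.23, 0.19, 0.77 and 0.28 in sham 1 to 5. Without sham 4, 19 members were higher and 1 lower, and the members' median fell from 0.31 to 0.19. As a plain share of all counts, with no scaling factor, the members took 0.317% ± 0.00624 of the naive libraries (SD, n = 5). In the sham libraries they took 0.460% ± 0.0607 (SD, n = 5), with sham 4 at 0.5585% and the others at 0.4069% to 0.4631%. Other genes rose on such a scale too: by library size only, the median log2 fold change of all genes tested was 0.22. Protein-coding genes together took 80.4% to 87.5% of the naive and 86.6% to 93.9% of the sham counts.

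**Figure D2:**
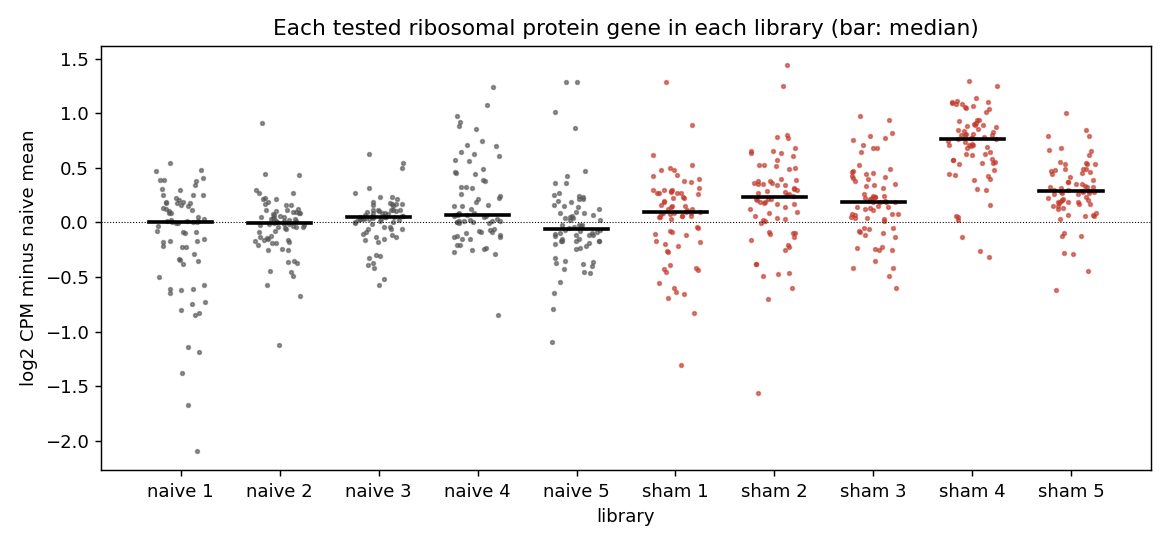
Log2 CPM of each of the 72 members tested minus its naive mean (vertical axis) in each of the 10 libraries (horizontal axis), 1 point per gene, with the median of the library as a bar. The median of sham 4 lies at 0.77, and those of the other sham libraries between 0.10 and 0.28.

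Rpl3 and Rpl3l moved in opposite directions. Rpl3, a large subunit protein close to the peptidyl transferase centre, is encoded at chr15:80077791-80091868 on the minus strand (ENSMUSG00000060036, GRCm38). Its CPM was 9.52, 7.88, 9.32, 8.94 and 8.59 in the naive libraries and 12.7, 14.2, 15.4, 15.8 and 14.2 in the sham libraries. Every sham library lay above every naive one, as in 13.6% of all genes tested. Mean CPM went from 8.85 ± 0.651 to 14.5 ± 1.21 (SD, n = 5 each), a log2 fold change of 0.72 ± 0.11 (SE) with an adjusted p of 8.07e-05 in edgeR, the smallest among the members. Its call did not rest on sham 4, without which the log2 fold change was 0.71.

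Rpl3l is encoded at chr17:24727820-24736143 on the plus strand (ENSMUSG00000002500). It held 323, 326, 317, 318 and 313 CPM in the naive libraries and 244, 227, 211, 266 and 235 CPM in the sham libraries. The naive libraries differed by little, at most 1.04-fold, which was the smallest spread of any member in that group. All 5 sham libraries were lower, as in 9.18% of all genes tested, and the log2 fold change was -0.43 ± 0.08 (SE, edgeR adjusted p = 5.44e-04). Sham 4, the highest library for most members, was also the highest sham library for Rpl3l. Scaled by library size only, the log2 fold change was -0.17 (edgeR adjusted p = 0.127), and no other of the 24 alternatives ended this call. Rps2 ends 5890 bases before Rpl3l on the same strand. Its CPM was 88.2 ± 6.16 in naive and 81.3 ± 5.34 in sham (SD, n = 5 each), and its log2 fold change of -0.12 ± 0.08 did not pass (edgeR adjusted p = 0.280). It was called lower with voom and with a GC offset.

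The ratio of the 2 paralogues needs no scaling between libraries. Rpl3l counts exceeded Rpl3 counts by 33.9, 41.4, 34.0, 35.5 and 36.5 times in the naive libraries and by 19.2, 16.0, 13.7, 16.8 and 16.5 times in the sham libraries. The highest sham ratio lay well below the lowest naive one. On the log2 scale the ratio differed by -1.14, a 0.453-fold ratio, with an exact two-sided permutation p of 0.00794, the smallest that 5 against 5 allows, and 0.0318 after adjustment over the 4 pairs tested. Leaving out any 1 library gave differences from -1.08 to -1.20, each with that adjusted p. The ratio itself is not one of molecules, since only 14.4% of the 50-base words of the Rpl3 transcript are found in no other gene and 26 other genes share some, whereas all words of Rpl3l are its own. Per kilobase of such unique sequence, mean levels were 47.2 CPM for Rpl3 and 241 CPM for Rpl3l in naive hearts, and 77.2 and 178 CPM in sham hearts. These values assume that reads matching several genes were not counted, which the labels and headers do not state.

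**Figure D3:**
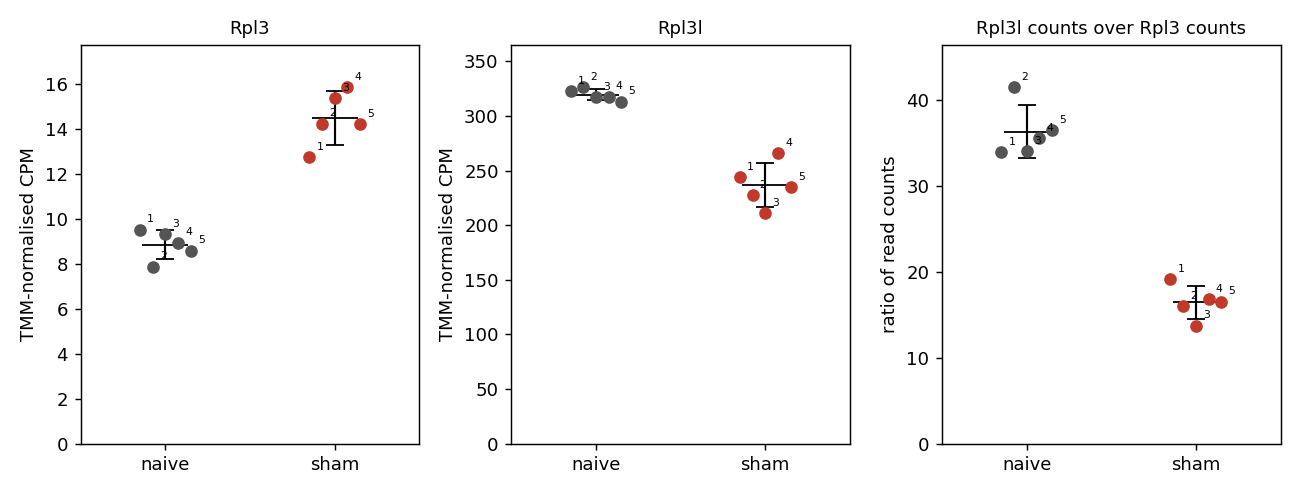
CPM of Rpl3 and of Rpl3l and the ratio of their counts in each library, numbered by library, with the group mean and SD in black. Rpl3 is 7.88 to 9.52 CPM in naive and 12.7 to 15.8 in sham, Rpl3l 313 to 326 and 211 to 266, and the ratio 33.9 to 41.4 and 13.7 to 19.2, with no overlap between groups in any of the 3.

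Heart muscle and fibroblast markers differed between the groups beside this pair. All 8 muscle markers were tested and 7 were lower in sham, with a summed level of 64570 to 71990 CPM in naive and 49810 to 56270 CPM in sham libraries. Of the 8 fibroblast markers 7 were higher, with sums of 1376 to 2014 CPM against 13750 to 25240 CPM, and of the 8 leukocyte markers 7 were higher, with sums of 448 to 581 CPM against 1088 to 1312 CPM. The 5 cycling-cell markers tested, of 6, were all higher, with sums of 4.43 to 8.97 CPM in naive and 23.7 to 44.8 CPM in sham. Of the 6 endothelial markers 2 were lower, with sums of 1092 to 1280 and 974 to 1086 CPM, and of the 5 blood markers tested, of 6, none passed, with sums of 44.6 to 360 and 68.6 to 294 CPM. None of these markers was at 0. Sham 4, the library highest in ribosomal protein counts, had the lowest fibroblast and endothelial sums of the sham libraries, 13750 and 974 CPM. It had the highest blood sum of them, 294 CPM, and a leukocyte sum of 1306 CPM, near the highest of 1312 CPM. Its muscle and cycling-cell sums, 55970 and 32.6 CPM, lay within the range of the other sham libraries. The part of these cell types in the ribosomal protein results was not tested.

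Other paralogue pairs differed less or could not be read. Rpl36al, which encodes a near-identical copy of Rpl36a, had 14.5 ± 3.04 CPM in naive and 19.5 ± 4.57 CPM in sham hearts (SD, n = 5 each) and was called higher only narrowly, with a log2 fold change of 0.45 ± 0.17 (edgeR adjusted p = 0.0495). The groups overlapped, and 24.5% of its exon bases are shared with Gm49383. The call was lost without any library other than naive 1 or sham 1 (edgeR adjusted p = 0.0522 to 0.114). The ratio of Rpl36al to Rpl36a was 1.06 higher on the log2 scale in sham, with an exact permutation p of 0.0397 and an adjusted p of 0.0794. It passed without sham 4 or with a pseudocount of 5 counts (adjusted p = 0.0318). This ratio rests on few parent reads, since Rpl36a had 173 counts over all 10 libraries together and 14.5% unique words. Rpl7l1 to Rpl7 differed by 0.03 (exact permutation p = 0.944) and Rps4l to Rps4x by 0.30 (exact permutation p = 0.516), or by 0.09 and 0.51 without sham 4. Rps4l is listed in the table as a transcribed pseudogene, so it is no member. Rps27l, a p53 target whose parent Rps27 was too low to test, had a log2 fold change of 0.35 ± 0.16 (edgeR adjusted p = 0.113, and 0.0259 without naive 1), and Rpl7l1 one of -0.02 ± 0.14 (edgeR adjusted p = 0.924), which was -0.08 without sham 4.

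Among small subunit genes 12 of the 26 tested were higher in sham and none was lower. That share is 46.2%, against 17.2% of all genes tested. The median log2 fold change was 0.33. Without sham 4 the count was 10 and the median 0.26. Rps19, the gene most often mutated in Diamond-Blackfan anaemia, lies at chr7:24884371-24889806 on the plus strand. It held 46.4, 36.9, 38.6, 32.2 and 27.4 CPM in naive and 54.7, 61.2, 51.5, 73.4 and 49.4 CPM in sham libraries. Its lowest sham library exceeded its highest naive one, and the log2 fold change was 0.68 ± 0.14 (edgeR adjusted p = 0.00118). Rps26, which contacts the messenger RNA at the exit of its channel (chr10:128624534-128626747, minus strand), had 97.6, 84.0, 82.4, 84.7 and 76.1 CPM in naive and 104, 129, 119, 182 and 130 CPM in sham libraries. Sham 4 was well above the other sham libraries, yet all 5 exceeded all 5 naive ones. The log2 fold change was 0.65 ± 0.13 (edgeR adjusted p = 9.34e-04) and 0.54 without sham 4.

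Rps3, which also has a known role in DNA repair and whose words are 97.0% unique, went from 219 ± 12.8 to 280 ± 47.3 CPM (SD, n = 5 each). Its log2 fold change was 0.35 ± 0.10 (edgeR adjusted p = 0.0164), although sham 1, at 234 CPM, lay within the naive range.

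Rps14, the gene lost in the 5q- syndrome, rose by a log2 fold change of 0.39 ± 0.10 (edgeR adjusted p = 0.00971), from 151 ± 8.32 to 197 ± 34.0 CPM (SD, n = 5 each). Rps7, which binds Mdm2 when ribosome assembly fails, rose by 0.59 ± 0.15 (edgeR adjusted p = 0.00699), and Rps18, on the head of the subunit, by 0.50 ± 0.13 (edgeR adjusted p = 0.00782). For Rps7 the sham 4 library read 36.6 CPM and the other 4 sham libraries 21.5 to 23.1, still above all 5 naive libraries. Rps9, Rps10, Rps16 and Rps20 were also called higher, by 0.30, 0.39, 0.57 and 0.53 on the log2 scale. Of these, Rps10 shares 28.7% of its exon bases with an annotated read-through gene. Rps16 lost its call without any one of naive 2 to 5, sham 3 or sham 4 (edgeR adjusted p = 0.0505 to 0.124), and Rps9 without naive 4 or naive 5 (edgeR adjusted p = 0.0501 and 0.0567).

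Rps6, the protein phosphorylated by S6 kinase, was called on few reads. It had 0.238, 0.677, 0.948, 0.941 and 0.695 CPM in naive and 0.953, 1.67, 1.21, 1.47 and 1.39 CPM in sham libraries, so the groups met without overlapping. The log2 fold change was 0.90 ± 0.30 (edgeR adjusted p = 0.0318), and 15.4% of its words are unique. The call was lost without any one of naive 1, 2 or 5 or sham 2, 4 or 5, with edgeR adjusted p from 0.0552 to 0.0731. Rps15, at 172 ± 19.7 and 206 ± 32.9 CPM (SD, n = 5 each), had a log2 fold change of 0.26 ± 0.11 that did not pass (edgeR adjusted p = 0.0814) but did without naive 1 (0.0271). Rpsa, which doubles as the laminin receptor precursor, read 0.70 ± 0.29 (edgeR adjusted p = 0.0787, and 0.0120 without naive 2). Rps27a, which is made fused to ubiquitin, read 0.24 ± 0.31 (edgeR adjusted p = 0.583) and 0.06 without sham 4.

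Among large subunit genes 8 of the 39 tested were higher and none was lower, with a median of 0.26. That share, 20.5%, is near the 17.2% of all genes tested. Without sham 4 the count was 7 and the median 0.16. Fitted values were positive in 35 of the 39, in 22 of the 26 small subunit genes and in 45.1% of all genes tested. The difference between the 2 subunits was not tested. Rpl13a, known also from the complex that silences inflammatory messages (chr7:45125558-45128761, minus strand), had 212, 200, 193, 172 and 168 CPM in naive and 246, 271, 261, 331 and 256 CPM in sham libraries. The groups did not overlap. The log2 fold change was 0.53 ± 0.10 (edgeR adjusted p = 6.85e-04), and 35.4% of its exon bases are shared with Gm45713. Rpl8, which sits near the peptidyl transferase centre (chr15:76904078-76906314, plus strand), held the most counts of the standard subunit genes, with 93.5% unique words. It read 381, 390, 343, 312 and 299 CPM in naive and 412, 451, 406, 527 and 404 CPM in sham libraries. All sham libraries were higher, by a log2 fold change of 0.35 ± 0.10 (edgeR adjusted p = 0.0150).

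Rpl10a, on the L1 stalk beside the exit site, rose by 0.54 ± 0.12 (edgeR adjusted p = 0.00317), from 13.7 ± 1.83 to 19.7 ± 2.73 CPM (SD, n = 5 each). Rpl12, at the base of the P stalk, rose by 0.71 ± 0.22 (edgeR adjusted p = 0.0213), with overlapping groups. Rpl5 and Rpl11, which together with the 5S RNA bind Mdm2 and are mutated in Diamond-Blackfan anaemia, were both near 1 CPM. Rpl11 was called, at 1.14 ± 0.199 and 1.96 ± 0.290 CPM (SD, n = 5 each), a log2 fold change of 0.77 ± 0.22 (edgeR adjusted p = 0.0139). Rpl5 had the largest fitted value of all members, 0.91 ± 0.37, and did not pass (edgeR adjusted p = 0.0754, and 0.0494 without sham 5). Its transcript holds 6.16% unique words, shared in the rest with 15 other genes. Rpl34 and Rpl37a were called higher by 0.44 and 0.39. Rpl34 lost its call without any one of naive 1 to 4 or sham 1, 3, 4 or 5 (edgeR adjusted p = 0.0553 to 0.113), and Rpl37a without naive 5 (edgeR adjusted p = 0.0548). Rpl22 read 0.31 ± 0.12 (edgeR adjusted p = 0.0631). Without sham 4 it read 0.19 (edgeR adjusted p = 0.0751), and it passed without sham 1 or sham 3 (edgeR adjusted p = 0.0403 and 0.0465). Rpl38, known for its part in Hox messenger RNA translation, read 0.46 ± 0.21 (edgeR adjusted p = 0.108) and 0.27 without sham 4.

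The stalk genes split. Rplp0, the stalk base that is often used as a reference gene in quantitative PCR (chr5:115559467-115563727, plus strand), had 234, 249, 262, 254 and 258 CPM in naive and 295, 313, 277, 374 and 286 CPM in sham libraries. Its groups did not overlap, and the log2 fold change was 0.30 ± 0.09 (edgeR adjusted p = 0.0182). Rplp1 had 267, 261, 269, 252 and 214 CPM in naive and 287, 312, 297, 442 and 316 CPM in sham libraries. It rose by 0.39 ± 0.12 (edgeR adjusted p = 0.0163), and by 0.30 without sham 4. Rplp2, which pairs with Rplp1 on the stalk, read 55.3, 53.3, 48.9, 61.1 and 49.9 CPM in naive and 49.4, 48.9, 50.5, 70.7 and 49.3 CPM in sham libraries. Outside sham 4 its sham libraries lay below the naive median, and the log2 fold change was 0.00 ± 0.11 (edgeR adjusted p = 0.988), or -0.09 without sham 4. The difference between the stalk genes was not tested.

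Levels differed far more between members than between groups. Among the 77 subunit and stalk genes, Rps27 had 9 counts over all 10 libraries together and Rpl8 a mean of 392.5 CPM. Yet the subunit proteins, apart from those of the stalk, are present in the ribosome at near-equal numbers. Per kilobase of transcript the highest were Rplp1 at 584.5 CPM, Rpl8 at 385 and Rps15 at 379. The level went with the share of the transcript that is unique. The 20 genes under 25% unique words had a median of 2.02 CPM per kilobase, the 20 genes between 25% and 50% had 10.2, the 28 genes between 50% and 75% had 28.5, and the 9 genes at 75% or more had 32.4. Across the 77 genes the unique share ran from 1.35% to 100% with a median of 48.3%, and 40 genes lay under 50%. How the authors counted reads that match several places is not stated in the labels or headers, and its part in these levels was not tested.

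**Figure D4:**
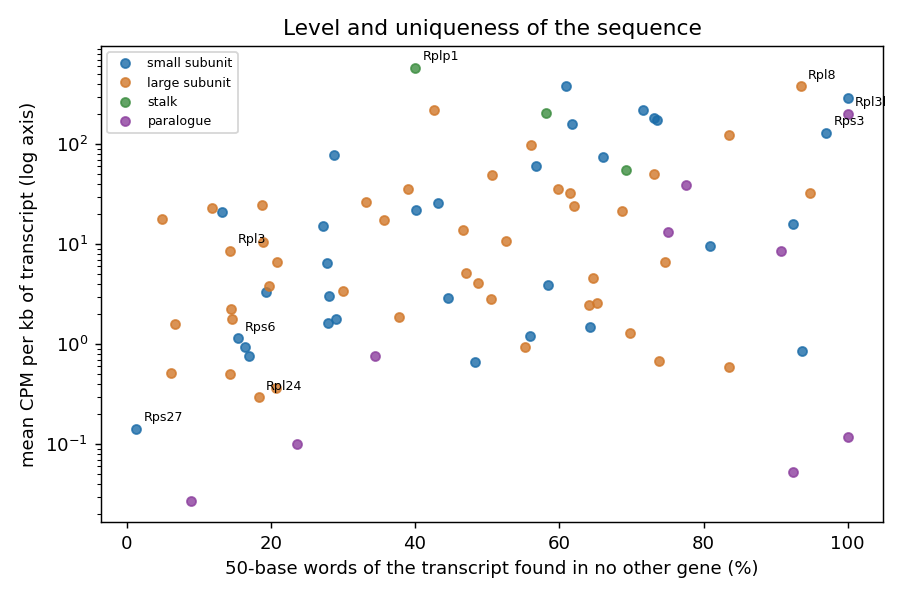
Mean CPM per kilobase of transcript (log axis) against the percent of 50-base words of the transcript found in no other gene, 1 point for each of the 77 subunit and stalk genes and the 9 paralogues, coloured by role. Subunit and stalk genes under 25% unique words have a median of 2.02 CPM per kilobase and those at 75% or more a median of 32.4, with wide scatter in each class.

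The same classes can be read for the response. Among the tested genes of the 4 classes, from least to most unique, 4 of 14, 5 of 19, 9 of 27 and 4 of 8 were higher. Of all genes tested, 17.2% were higher. The median log2 fold changes of the classes were 0.17, 0.24, 0.32 and 0.35. These counts and medians include sham 4, and class values without it are not given. The median did not fall from the least to the most unique class, and the difference between the classes was not tested. Counts on 234 named ribosomal protein pseudogenes came to between 0.307% and 0.614% of the members' own counts in each library.

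Some members varied widely inside a group. The highest naive library exceeded the lowest by a median of 1.57 times over the 72 members tested and by more than 2 times in 20 of them, of which 2 were called. Rps25 read 7.73, 13.0, 19.7, 27.4 and 32.3 CPM in naive 1 to 5 and 9.96, 10.9, 13.2, 33.5 and 28.1 CPM in sham 1 to 5. Rpl7 read 5.47, 9.60, 13.1, 30.3 and 29.0 CPM in naive and 9.44, 12.1, 10.7, 21.0 and 21.1 CPM in sham libraries. For both genes the libraries numbered 4 and 5 were the highest of their group. Rps25 and Rpl7 had log2 fold changes of -0.06 ± 0.47 and -0.23 ± 0.47 (edgeR adjusted p = 0.944 and 0.751), with standard errors several times that of Rpl8, and read -0.32 and -0.35 without sham 4. Rps3a1, from 0.238 to 3.41 CPM in naive hearts, had the widest spread at 14.3 times. In such genes a difference of the size seen in Rpl8 was not detectable.

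Ribosomal proteins that the name rule leaves out were read for comparison. Rack1, the kinase scaffold on the small subunit head, rose by 0.38 ± 0.10 (edgeR adjusted p = 0.00735), from 256 ± 20.7 to 334 ± 45.7 CPM (SD, n = 5 each), and its lowest sham library, at 298 CPM, exceeded its highest naive one, at 278 CPM. Fau, made as a fusion to a ubiquitin-like protein, read 0.40 ± 0.22 and did not pass (edgeR adjusted p = 0.179).

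Calls among other messenger RNAs of the TOP class went both ways. Of 18 listed and tested, 3 were higher and 2 lower, and neither share exceeded the 17.2% higher and 15.5% lower of all genes tested. The list median was 0.07, or 0.04 without sham 4. Scaled by library size only, 8 were higher and 1 lower. Pabpc1, the cytoplasmic poly(A)-binding protein, rose by 0.81 ± 0.09 (edgeR adjusted p = 6.76e-06). Eif3f, a subunit of the initiation factor eIF3, fell by 1.26 ± 0.15 on the log2 scale (edgeR adjusted p = 1.11e-05). Its mean was 9225 CPM in naive and 3845 CPM in sham libraries. The listed eIF3 subunits Eif3e, Eif3h, Eif3k and Eif3l had naive means of 5.20, 76.5, 66.75 and 59.55 CPM. Why the Eif3f level lies so far above theirs was not tested. Naca, the nascent chain chaperone, fell by 0.51 ± 0.12 (edgeR adjusted p = 0.00420). Of the 33 ribosome assembly factors 3 were higher and 2 lower, shares below the 17.2% and 15.5% of all genes tested. Their median was -0.01, and without sham 4 it was 0.02, with 2 higher and 1 lower. By library size only 15 were higher and 0 lower, with a median of 0.25. Eif6, which keeps the subunits apart until the large one is mature, rose by 0.30 ± 0.08 (edgeR adjusted p = 0.0101). Gar1, a protein of the pseudouridylation particle, rose by 0.35 ± 0.11 (edgeR adjusted p = 0.0272, and 0.0536 to 0.0708 without naive 2, 3 or 5 or sham 3). Rrp12, an export factor, fell by 0.37 ± 0.09 (edgeR adjusted p = 0.00610). RNA polymerase I, which makes the ribosomal RNA, had no higher and 2 lower genes among 12 tested of 13 listed. Those 16.7% are near the 15.5% of all genes tested, and the number lower was 1 without any one of naive 3 to 5 or sham 2 to 4. The list had a median of -0.09 that became 0.17, with 3 higher and 0 lower, by library size only. Polr1a fell by 0.29 ± 0.08 (edgeR adjusted p = 0.0107) and Polr1b by 0.38 ± 0.13 (edgeR adjusted p = 0.0321). The call of Polr1b was lost without any one of naive 3 to 5 or sham 2 to 4 (edgeR adjusted p = 0.0530 to 0.125).

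The initiation factors and the mTORC1 pathway held more genes that fell than rose. Of 24 tested of 26 listed, 2 were higher and 8 lower, or 33.3% lower against 15.5% of all genes tested, with a median of -0.19 that became 0.07, with 3 higher and 0 lower, by library size only. The number lower fell to 5 without naive 3, sham 2 or sham 4. The list holds mTORC1 genes and brakes on mTORC1 alike, and both are among those that fell. The count therefore gives no direction for the activity of the pathway. The difference between this list and the members was not tested. Tsc2, a brake on mTORC1, fell by 0.41 ± 0.08 (edgeR adjusted p = 6.28e-04), Mtor itself, named after its value was seen, by 0.40 ± 0.10 (edgeR adjusted p = 0.00570), Eif4ebp2 by 0.39 ± 0.09 (edgeR adjusted p = 0.00240) and Eif4g1 by 0.33 ± 0.08 (edgeR adjusted p = 0.00535). Myc, a driver of ribosome synthesis, had 4.48 to 9.76 CPM in naive and 15.9 to 19.8 CPM in sham libraries and rose by 1.22 ± 0.17 (edgeR adjusted p = 4.07e-05). Its relative Mycn fell by 0.65 ± 0.11 (edgeR adjusted p = 2.57e-04) and the antagonist Mxi1 by 0.33 ± 0.11 (edgeR adjusted p = 0.0296, and 0.0614 to 0.0825 without naive 1 or 2 or any one of sham 2 to 5). Of the 5 genes listed with Myc, 1 was higher and 2 were lower, with a median of 0.18, and by library size only 3 were higher and 1 lower, with a median of 0.44.

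The proteins of the mitochondrial ribosome did not follow those of the cytosolic one. Of 78 listed genes 74 were tested, none was higher and 19 were lower, which is 25.7% against 15.5% of all genes tested, and the median was -0.24. This count varied with the setting and with single libraries: it was 44 with voom and 30 without sham 4, but 10 without naive 2, 9 without naive 4, and 11, 7, 5 and 6 without sham 1, 2, 3 and 5. By library size only, 4 were higher and 2 lower, with a median of 0.02. Mrpl39 fell by 0.67 ± 0.09 (edgeR adjusted p = 3.36e-05), from 40.5 ± 4.32 to 25.4 ± 1.44 CPM, Mrpl3 fell by 0.52 ± 0.08 (edgeR adjusted p = 2.24e-04), and Mrpl37 fell by 0.33 ± 0.08 (edgeR adjusted p = 0.00511). The difference between the cytosolic and mitochondrial lists was not tested.

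**Figure D5:**
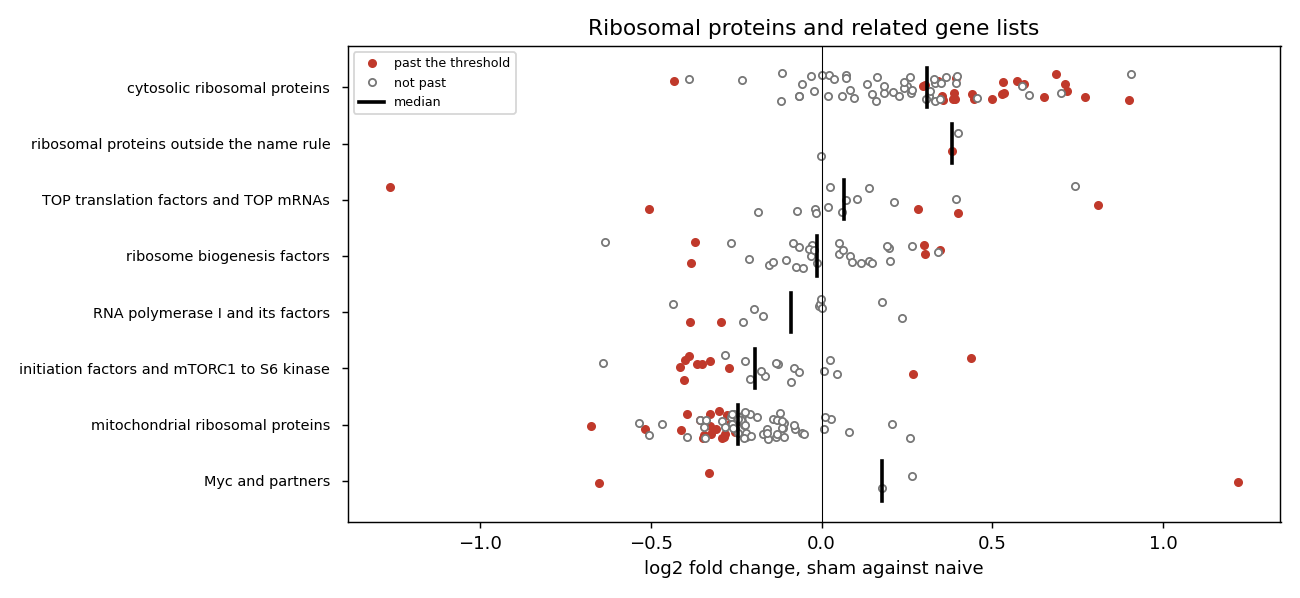
Log2 fold changes (sham against naive) of the genes tested in each list, the cytosolic ribosomal proteins beside 7 related lists, with the median of each list marked. The cytosolic members have a median of 0.31 and the mitochondrial ribosomal proteins one of -0.24.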

How the data were processed

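Poly(A) RNA of ventricles from 5 naive and 5 sham-operated mice was made into single-end libraries without strand marking, per the labels' protocols. The authors deposited raw read counts per Ensembl gene on GRCm38, per the file headers, not pooled and not normalised. The submitters' processing notes list edgeR, DESeq, HTSeq, Bowtie2 and TopHat2 2.1.1 but give no role for any. Which annotation, counting mode and strand option were used is stated nowhere in the labels or headers, so overlapping genes and near-identical copies are uncertain, and 11 members have over 20% of their exon bases in common with a neighbour. A percent GC column in the deposited table served the GC offset alone.

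Of 41264 rows, 574 repeated an identifier and were collapsed. The member rule gave 115 rows and 100 genes, all matched to GENCODE M21 gene models. Genes were kept by filterByExpr (minimum count 10, minimum total 15) in edgeR 4.0.16, scaled with TMM and tested with its robust quasi-likelihood test on group alone, with Benjamini-Hochberg adjustment over 13622 genes and a threshold of 0.05. Log2 fold changes are sham against naive. Paralogue ratios used log2 counts with a pseudocount of 0.5, an exact two-sided permutation over samples, and adjustment over the 4 pairs of 8 in which both genes were tested. The unique share is the percent of 50-base words of a gene's principal transcript found in no other gene's transcripts. Promoters come from RefSeq (GRCm38.p6) and were matched by symbol, with the most upstream start kept for each.

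Alternatives were DESeq2 1.42.0, limma 3.58.1 voom, other scalings and filters, a GC offset, a replicate block, added pseudogene counts and leaving out each library, 24 in all; leaving out naive 1 and sham 4 together was chosen after seeing the data. The gene test was checked on simulated counts, where 8 of 157 calls were false. It recovered 53.8% of genes changed 1.5-fold, 81.2% of those changed 2-fold and 98.4% of those changed 4-fold. A member that did not pass may therefore still differ between the groups. The members and gene lists were chosen with earlier results of these data known. Named genes were the 8 members of smallest p, the 5 largest increases and decreases, the 5 highest per kilobase, the stalk and paralogue genes, members with another known role, and up to 3 genes of smallest p per related list; Rps9, Rps10, Rps16, Rps20, Rpl34, Rpl37a, Rps2, Rps25, Rps3a1 and Mtor were added to the text with their values known. The labels give separate samples and no more on the animals, so a p-value reflects only how these samples vary, part of which may be technical. Results of some genes that the rule names are not reported here. The floor of 3 counts covers counting error only.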

Additional observations from a re-analysis of the deposited data

Results flagged for a closer look

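Among 74 groups of 5 libraries examined, 7 held a library far from the other 4 by Dixon's gap criterion, which chance meets in about 1 of 20 groups. In all 7 it was sham 4, the highest. There Rpl22 read 103.3 CPM against 62.7 to 72.1 in the other sham libraries, Rplp1 442.0 against 287 to 316, and Rplp2 70.7 against 48.9 to 50.5. Rps14 read 255.9 CPM against 172 to 194, Rps15 265.0 against 190 to 195, and Rps7 36.64 against 21.5 to 23.1. Summed member CPM there was 5369 against 3755 to 4063. What sets sham 4 apart was not tested.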

How the results depend on the processing

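Of the 24 members called, 15 kept their call under all 24 alternatives, among them Rpl3, Rps19, Rps26, Rpl13a, Rpl8, Rplp0 and Rplp1, and no named result reversed where it had been called. With library size alone, 45 members were higher and 0 lower with a median of 0.57, all genes gave 4473 higher and 283 lower, and the related lists 38 higher and 4 lower, against 10 and 35 with TMM. With voom, 2 members were lower, the median was 0.24, 3269 genes were lower and 61 genes of the related lists were lower. With no filter, 20 of the related lists were lower. Members lower numbered 2 with the GC offset and 2 with the GC offset and replicate block, where 55 of the related lists were lower. Leaving out 1 library gave 18 to 27 members higher, 1 lower, a median of 0.19 to 0.37, 5 to 9 of the related lists higher and 17 to 40 lower, and 1 to 2 paralogue ratios past the threshold. A pseudocount of 5 counts gave 2 ratios. Leaving out naive 1 and sham 4 together, chosen after seeing the data, gave 21 members higher, a median of 0.18 and 0 ratios, since 4 against 4 cannot give a permutation p below 0.0286. The replicate block gave 30 members higher and 1 lower, and 0 ratios, since 5 pairs cannot give a sign-flip p below 0.0625. Same-numbered libraries correlated by 0.23, 0.04, 0.01, 0.29 and 0.29 for numbers 1 to 5, and both libraries correlated best with their own number for 1, 4 and 5 only. With 2 of the 5 pairs under 0.1 and no label tying same-numbered animals, the numbers were not taken as a pairing. Pairs 1, 4 and 5 and the rise from 23 to 30 members under the block are still a hint of one from the data. The second principal component of the tested genes, with 15.9% of the variance, also largely followed the numbers. It read 38.7, 11.9, 3.93, -26.5 and -28.0 in naive 1 to 5 and 16.4, 4.96, 2.89, -14.7 and -9.52 in sham 1 to 5. Numbers 2 and 3 lay mid-way on it in both groups, so their low correlations do not decide the question. The mitochondrial ribosomal proteins counted 34 lower with the block and 36 with the GC offset and block. Rps6 and Rpl11, near 1 CPM, lost their calls with no filter, where more genes were tested. The cause was not tested.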
